A study of Homo sapiens with 6 samples.

Results

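The genes described here are 31 members of cholesterol synthesis, sterol uptake and sterol control, taken by their symbols from a table of 28265 genes. They comprise 18 enzymes of synthesis, the uptake regulator MYLIP, 5 genes of the SREBP system, 4 genes of the nuclear receptor and oxysterol arm, and 3 genes of sterol storage, transport and lipid synthesis. All 31 were measured and all 31 passed the filter on low counts. RNA was sequenced from LN229, an established human glioblastoma cell line grown in serum-containing medium, in 3 libraries labelled TRIM25 knockdown and 3 libraries labelled WT. The series design names a short hairpin RNA (shTRIM25) as the means of knockdown. The titles of the WT libraries carry the letters NC, which no label explains, so a control hairpin may or may not have been present. No label states how cultures or clones relate to the libraries; the p-values below therefore rest on library-to-library spread that may be technical.

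Cells build cholesterol from acetyl-CoA through mevalonate, the isoprenoids, squalene and lanosterol. When membrane sterol is low, the transcription factors SREBP-1 and SREBP-2 leave the endoplasmic reticulum with their escort SCAP, are cut in the Golgi and switch on these enzymes; when sterol is high, INSIG proteins hold SCAP back. Oxysterols act through the liver X receptors (LXR) to switch on sterol export and MYLIP. The dependence of glioblastoma cells on imported cholesterol is well known.

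Total counts lay between 11349865 and 16404725 in the libraries labelled knockdown and between 13763400 and 15868470 in those labelled WT. TRIM25 itself, an E3 ubiquitin ligase gene, stood at 80.3, 80.0 and 88.5 CPM (counts scaled to library size, with TMM factors) in the libraries labelled knockdown, against 35.3, 35.8 and 35.6 CPM in those labelled WT. It was thus higher under the knockdown label, by 1.22 ± 0.07 on the log2 scale (SE; edgeR adjusted p = 3.23e-09). This goes against the label, and each direction below is that of the label, not of a loss of TRIM25 mRNA. The library labelled knockdown replicate 1 stood apart from the other libraries on the second principal component (score -19.8, 16.6% of the variance). Of 10 glial genes 8 were abundant enough to test, among them SOX2, NES and VIM. Of these 8, 1 passed as higher and 3 as lower (50%, against 23.3% of all tested genes). The summed level of the 10 ranged from 4853 to 5200 CPM in the libraries labelled knockdown and from 5287 to 5590 CPM in those labelled WT, while GFAP averaged 0.314 CPM in the libraries labelled knockdown and 0.509 CPM in those labelled WT. CDKN2A, a gene deleted in LN229, had no count in any library labelled knockdown and at most 0.0725 CPM in those labelled WT. The summed level of 5 immune markers ranged from 60.6 to 75.1 CPM in the libraries labelled knockdown and from 45.9 to 48.3 CPM in those labelled WT; CD68 made up most of it, AIF1 was at 0 in all libraries, and PTPRC averaged 0.326 CPM under the knockdown label and 0.108 CPM under WT. The summed level of 4 fibroblast markers ranged from 21.7 to 22.7 CPM under the knockdown label and from 33.7 to 37.7 CPM under WT, that of 4 neuronal markers from 22.3 to 23.4 CPM under the knockdown label and from 27.1 to 30.6 CPM under WT, and that of 4 endothelial markers from 1.86 to 2.70 CPM under the knockdown label and from 2.59 to 3.12 CPM under WT. Their part in the results was not tested.

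The 31 genes covered a wide range of levels. On the authors' TPM scale, which takes gene length into account, FDPS was highest, at 249.3 ± 4.04 TPM in the libraries labelled knockdown and 258.0 ± 9.89 TPM in those labelled WT (SD, n = 3 each). FDPS makes farnesyl diphosphate, the branch point between sterols and protein prenylation. It shares 476 of its 1647 bp of exon with the antisense gene RUSC1-AS1, and reads of these genes may not be separable. The LXR-alpha gene NR1H3 was lowest, at 6.41 ± 0.680 TPM under the knockdown label and 7.30 ± 0.495 TPM under WT. NR1H2, which encodes the related LXR-beta, stood at 69.3 ± 5.83 TPM under the knockdown label and 70.3 ± 2.77 TPM under WT, so LXR-beta was the more abundant of the LXR transcripts in both groups. Likewise SREBF2, the gene of the sterol-directed SREBP-2, stood at 66.0 ± 1.75 TPM under the knockdown label and 58.7 ± 0.882 TPM under WT, above SREBF1 at 36.1 ± 1.59 TPM under the knockdown label and 37.6 ± 1.51 TPM under WT.

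**Figure D1:**
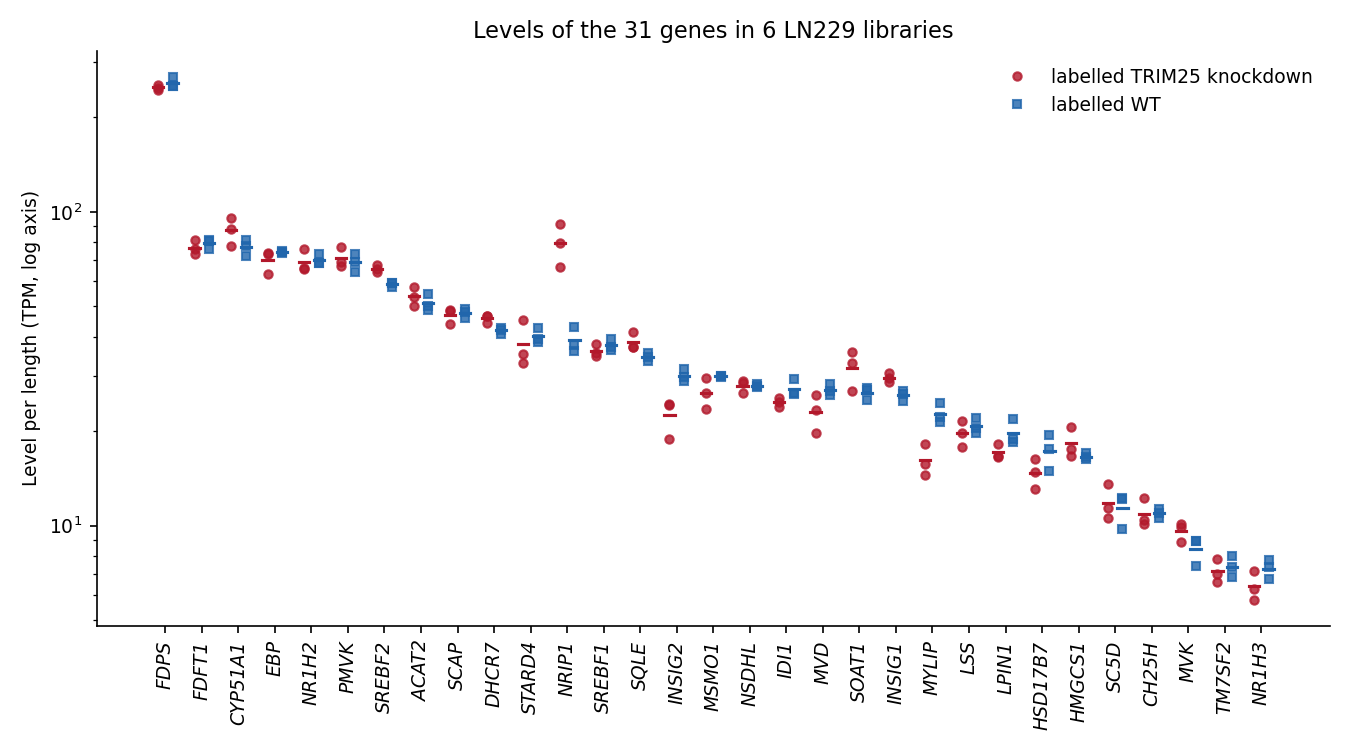
Level of each of the 31 genes in TPM, a scale per gene length, on a log axis, with the 3 libraries labelled TRIM25 knockdown as circles left of the 3 labelled WT as squares, and a bar at each group mean. FDPS is highest and NR1H3 lowest in the WT order, and NRIP1 shows the widest gap between the groups.

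Between the groups, 4 of the 31 genes passed an edgeR adjusted p of 0.05 (12.9% of them): NRIP1 was higher in the libraries labelled knockdown, and MYLIP, INSIG2 and LPIN1 were lower. In bulk RNA, fewer cells with a transcript and less transcript per cell cannot be told apart. Across all 14315 tested genes 23.3% passed, 12.2% higher and 11.0% lower, so the share among the sterol genes was below that background. None of the 18 synthesis enzymes passed, though 3 did without knockdown replicate 1. The median log2 fold change of the 31 genes was -0.07, against -0.0038 for all tested genes, and 11 were above 0 and 20 below. The number passing was 8 without knockdown replicate 1, where MVD and FDFT1 were also lower and CYP51A1 and SOAT1 also higher. In that fit 4941 of all 14616 tested genes passed. With trends of transcript length and GC content removed, 9 of the 31 passed, and 4512 of all 14315 genes did. Both counts rose along with those of all genes and are no result about the sterol genes. NRIP1, MYLIP and INSIG2 passed under all 14 settings run.

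**Figure D2:**
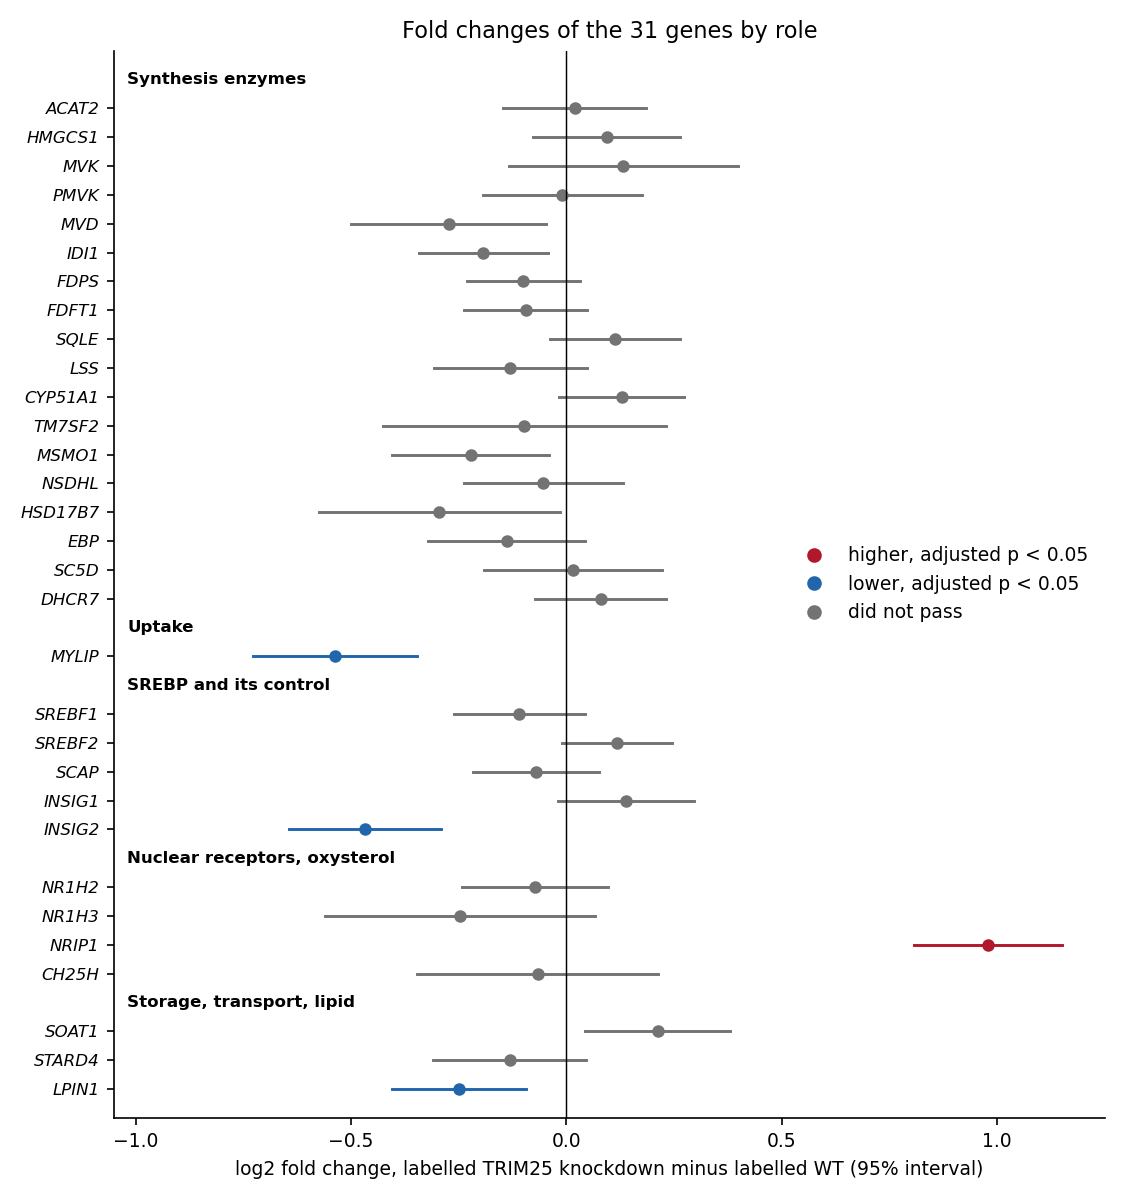
Log2 fold change of each gene, labelled TRIM25 knockdown minus labelled WT, with its 95% interval (edgeR), arranged by role. NRIP1 lies at 0.98, MYLIP at -0.54, INSIG2 at -0.47 and LPIN1 at -0.25; the intervals of all other genes are grey because their adjusted p did not pass.

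Synthesis starts with ACAT2, the cytosolic thiolase that joins acetyl-CoA units, and HMGCS1, the HMG-CoA synthase. ACAT2 stood at 34.2 ± 1.42 CPM in the libraries labelled knockdown and 33.8 ± 2.59 CPM in those labelled WT, and HMGCS1 at 35.2 ± 3.17 CPM under the knockdown label and 33.2 ± 1.27 CPM under WT (SD, n = 3 each). The groups overlapped for both genes. ACAT2 shares exon sequence with SOD2 and TCP1 on the opposite strand, and HMGCS1 shares 703 bp of exon with an antisense gene. Reads of these overlapping genes may not be separable. The mevalonate kinases MVK and PMVK had log2 fold changes of 0.13 ± 0.13 and -0.0093 ± 0.09 (SE), and FDPS one of -0.10 ± 0.06.

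MVD and IDI1 act in the stretch of the pathway that makes the isoprenoid building blocks, and they were among the 4 of 18 synthesis genes whose groups did not overlap in CPM, a pattern seen for 37.3% of all tested genes. MVD, the mevalonate diphosphate decarboxylase gene, was at 16.9, 12.3 and 14.4 CPM in the libraries labelled knockdown, against 17.0, 18.5 and 17.3 CPM in those labelled WT. IDI1, the isopentenyl diphosphate isomerase gene, was at 37.2, 38.4 and 36.5 CPM under the knockdown label and at 44.6, 41.6 and 41.8 CPM under WT. All 3 values labelled knockdown thus lay below all 3 labelled WT for each gene, by a narrow margin for MVD. Their log2 fold changes were -0.27 (95% interval -0.50 to -0.05) and -0.19 (-0.34 to -0.04), with edgeR adjusted p of 0.0757 and 0.0589, so neither passed. IDI1 passed with the length trend removed (edgeR adjusted p = 0.0193) and with length and GC trends removed (0.00175). MVD passed without knockdown replicate 1 (0.00585), the library with the highest MVD value of its group. The MVD log2 fold change was -0.18 without knockdown replicate 2 (edgeR adjusted p = 0.327). It was -0.20 with the length trend removed (0.145) and -0.14 with length and GC trends removed (0.257).

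The squalene steps showed no common direction. FDFT1, which joins farnesyl units into squalene, stood at 118.0 ± 9.86 CPM in the libraries labelled knockdown and 125.8 ± 4.81 CPM in those labelled WT. SQLE, the squalene epoxidase gene, was at 39.6, 38.2 and 41.7 CPM under the knockdown label, against 37.0, 37.2 and 36.6 CPM under WT. The groups of SQLE did not overlap, the knockdown label being higher, but the log2 fold change of 0.11 ± 0.07 (SE) did not pass (edgeR adjusted p = 0.273). LSS, which folds squalene epoxide into lanosterol, had a log2 fold change of -0.13 ± 0.08.

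From lanosterol onwards, 8 enzymes were measured. CYP51A1, the lanosterol demethylase gene, had the highest mean TPM of them, at 87.3 ± 9.19 TPM in the libraries labelled knockdown and 77.2 ± 4.42 TPM in those labelled WT (SD, n = 3 each). MSMO1, the C4-methylsterol oxidase gene, was at 18.8, 20.4 and 22.3 CPM under the knockdown label and at 23.5, 24.2 and 24.5 CPM under WT. The MSMO1 groups did not overlap, and the log2 fold change of -0.22 (95% interval -0.40 to -0.04) missed the threshold (edgeR adjusted p = 0.0725). MSMO1 passed without knockdown replicate 3 (0.0378) and with length and GC trends removed (0.0151), but not with the length trend alone removed (0.169). HSD17B7, a ketosteroid reductase of the same demethylation complex whose reads can be split with the pseudogene HSD17B7P2, had the largest negative estimate of the enzymes, -0.29 ± 0.13 (SE; edgeR adjusted p = 0.118). It passed without WT replicate 1 (0.0386) but not without knockdown replicate 3 (0.400) or WT replicate 3 (0.430). The reductase TM7SF2, the dehydrogenase NSDHL, the isomerase EBP, the desaturase SC5D and the last-step reductase DHCR7 had log2 fold changes between -0.14 and 0.08.

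Taken as a group, 7 of the 18 synthesis enzymes had estimates above 0 and 11 below, with a median of -0.07. The edgeR, DESeq2 and limma-voom fits each called 0 of 18; at an unadjusted p under 0.05, edgeR and limma-voom gave 4 genes (HSD17B7, IDI1, MSMO1 and MVD, all lower) and DESeq2 gave 1. Of all tested genes, 35.9% were under that unadjusted p in edgeR, 36.1% in limma-voom and 28.4% in DESeq2, so these counts are no result about the enzymes. The 95% intervals bound the size of the differences. The lowest bound was -0.57 for HSD17B7, a level 1.49-fold lower in the libraries labelled knockdown, and the highest was 0.40 for MVK, a level 1.32-fold higher. For 17 of the 18 the whole interval lay within 0.5 of 0. Summed over the enzymes, the authors' TPM was 880.2, 873.2 and 877.3 in the libraries labelled knockdown and 878.1, 867.6 and 893.6 in those labelled WT, with overlapping groups and means of 876.9 ± 3.52 under the knockdown label and 879.8 ± 13.1 under WT (SD, n = 3 each). A sum of this kind is weighted towards the abundant FDPS.

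Within the SREBP system, the paralogs INSIG1 and INSIG2 had estimates of opposite sign. Both encode membrane proteins that retain SCAP when sterol is high; INSIG1 is itself an SREBP target, whereas INSIG2 is known to be transcribed largely without SREBP. INSIG2 was at 25.5, 31.5 and 31.1 CPM in the libraries labelled knockdown, against 41.5, 39.5 and 41.0 CPM in those labelled WT. Every knockdown-labelled value lay below every WT value, and replicate 1 was the lowest of all. INSIG2 was 1.38-fold lower, a log2 fold change of -0.47 ± 0.08 (SE; edgeR adjusted p = 0.00076), and kept its call without any 1 library (highest adjusted p 0.00482). INSIG1 was at 33.8, 31.8 and 33.1 CPM under the knockdown label and at 29.5, 31.2 and 29.2 CPM under WT, also without overlap. Its log2 fold change of 0.14 (95% interval -0.02 to 0.30) did not pass (edgeR adjusted p = 0.194), except with length and GC trends removed (0.0395).

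The ratio of INSIG2 to INSIG1, taken within each library on the authors' TPM scale, was 0.641, 0.841 and 0.799 in the libraries labelled knockdown, against 1.20, 1.08 and 1.20 in those labelled WT. INSIG2 was thus the less abundant paralog in each library labelled knockdown and the more abundant one in each labelled WT. The means were 0.761 ± 0.105 under the knockdown label and 1.16 ± 0.0694 under WT (SD, n = 3 each). This ratio was formed after the values of both genes were known and was not tested.

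The transcription factor genes and their escort did not pass. SREBF2 was at 140.3, 128.4 and 129.3 CPM in the libraries labelled knockdown and at 120.3, 120.9 and 125.3 CPM in those labelled WT, higher without overlap, with a log2 fold change of 0.12 (95% interval -0.01 to 0.25) that did not pass (edgeR adjusted p = 0.170). SREBF1, which encodes the more fatty-acid-directed SREBP-1, had one of -0.11 ± 0.07 (SE) and the escort gene SCAP one of -0.07 ± 0.07, and for both the groups overlapped. These are gene-level counts, so the SREBF1 isoforms and the cleaved, active proteins were not measured.

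Promoter sequences of INSIG2, MYLIP and NRIP1, the genes called under every setting, with INSIG1 as the paralog for comparison and SREBF2 as a known target of its own product, are given 5′ to 3′ on the gene's strand from 250 bases before to 50 bases after a RefSeq start site, in build GRCh38.p14. Where RefSeq lists several starts, the one listed first is shown. Capitals mark matches, on either strand, to TCACNCCAC (core of a sterol regulatory element), CCAAT (bound by NF-Y) or GGGCGG (bound by SP1); neighbouring GGGCGG matches can overlap. The windows are INSIG2 (chr2:118088221-118088520, plus strand), INSIG1 (chr7:155297628-155297927, plus strand), SREBF2 (chr22:41832855-41833154, plus strand), MYLIP (chr6:16128836-16129135, plus strand) and NRIP1 (chr21:15065887-15066186, minus strand).
INSIG2: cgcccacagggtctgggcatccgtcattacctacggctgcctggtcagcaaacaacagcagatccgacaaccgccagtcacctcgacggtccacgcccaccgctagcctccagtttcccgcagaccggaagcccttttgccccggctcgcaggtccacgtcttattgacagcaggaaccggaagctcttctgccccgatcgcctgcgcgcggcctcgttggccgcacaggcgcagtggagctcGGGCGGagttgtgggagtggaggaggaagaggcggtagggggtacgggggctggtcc
INSIG1: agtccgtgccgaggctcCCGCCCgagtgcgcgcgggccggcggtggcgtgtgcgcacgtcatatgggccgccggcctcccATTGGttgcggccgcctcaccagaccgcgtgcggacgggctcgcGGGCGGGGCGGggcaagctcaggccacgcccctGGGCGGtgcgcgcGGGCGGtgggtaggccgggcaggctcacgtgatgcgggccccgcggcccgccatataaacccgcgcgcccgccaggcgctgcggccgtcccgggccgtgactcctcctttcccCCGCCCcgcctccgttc
SREBF2: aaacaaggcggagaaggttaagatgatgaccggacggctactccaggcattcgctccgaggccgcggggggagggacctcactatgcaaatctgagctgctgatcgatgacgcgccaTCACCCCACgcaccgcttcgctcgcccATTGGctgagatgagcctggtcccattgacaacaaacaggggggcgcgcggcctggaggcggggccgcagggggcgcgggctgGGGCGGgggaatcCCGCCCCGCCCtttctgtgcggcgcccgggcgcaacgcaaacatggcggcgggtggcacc
MYLIP: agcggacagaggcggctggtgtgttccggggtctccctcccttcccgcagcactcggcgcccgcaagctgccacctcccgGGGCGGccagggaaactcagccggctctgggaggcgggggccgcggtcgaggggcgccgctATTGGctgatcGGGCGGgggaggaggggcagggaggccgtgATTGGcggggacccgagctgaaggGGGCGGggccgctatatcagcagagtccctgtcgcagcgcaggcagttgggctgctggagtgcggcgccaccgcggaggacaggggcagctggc
NRIP1: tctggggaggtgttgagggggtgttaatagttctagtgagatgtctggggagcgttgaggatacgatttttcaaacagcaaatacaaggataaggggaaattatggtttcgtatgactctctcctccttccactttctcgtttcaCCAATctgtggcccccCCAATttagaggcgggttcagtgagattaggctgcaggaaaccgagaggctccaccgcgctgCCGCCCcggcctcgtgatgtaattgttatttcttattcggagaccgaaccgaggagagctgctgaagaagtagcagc

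The INSIG2 window held 1 GGGCGG match and no CCAAT, and the INSIG1 window held 6 GGGCGG matches and 1 CCAAT. The SREBF2 window held the core element TCACNCCAC at position -133 from the start site, with a CCAAT on the other strand at -106. MYLIP held 2 CCAAT and 3 GGGCGG matches, and the NRIP1 window shown held 2 CCAAT and 1 GGGCGG. RefSeq promoters were matched for 28 of the 31 genes. TCACNCCAC was found in 1 of these 28 genes and in 1.13% of all 35116 promoters, CCAAT in 20 of 28 and in 34.6% of all promoters, and GGGCGG in 27 of 28 and in 45.0%. The E-box CANNTG, also searched on both strands, was in 19 of 28 and in 68.7% of all promoters. A gene counts once here even where it has several starts, while the shares over all promoters count each start. Counted by start, 2.44% of the 41 member promoters held TCACNCCAC, 53.7% CCAAT, 87.8% GGGCGG and 56.1% CANNTG. These figures are descriptions of the letters only. INSIG1, named above as an SREBP target, held no TCACNCCAC, so a missing match does not show that a gene lacks control by SREBP.

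MYLIP, the E3 ligase that marks lipoprotein receptors such as VLDLR and LRP8 for degradation and is a classic LXR target, was the most reduced of the 31 genes. It was at 16.0, 16.8 and 19.0 CPM in the libraries labelled knockdown, against 26.6, 24.8 and 24.2 CPM in those labelled WT, so the groups were well separated. MYLIP fell by 0.54 on the log2 scale (SE 0.09; edgeR adjusted p = 0.000438), a level 1.45-fold lower. Its estimate ranged from -0.62 to -0.48 when each library was left out in turn.

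NRIP1, the corepressor gene recruited by ligand-bound nuclear receptors, was at 186.3, 214.8 and 242.0 CPM in the libraries labelled knockdown, against 117.4, 106.5 and 102.7 CPM in those labelled WT. The lowest value labelled knockdown was far above the highest labelled WT, and the spread was wider under the knockdown label. NRIP1 rose 1.97-fold, by 0.98 ± 0.08 on the log2 scale (SE; edgeR adjusted p = 3.09e-07), which ranked 53 from the top among all tested genes. The transcript is long (7751 bp) and shares 562 bp of exon with an antisense gene, and with length and GC trends removed its log2 fold change was 0.82. The receptor genes did not pass. NR1H2 had a log2 fold change of -0.07 ± 0.08 and NR1H3 one of -0.25 ± 0.15 (SE), with NR1H3 at only 56 to 73 counts per library labelled knockdown and 84 to 102 per library labelled WT. CH25H, which makes 25-hydroxycholesterol, stood at 6.44 ± 0.672 CPM under the knockdown label and 6.70 ± 0.357 CPM under WT (SD, n = 3 each), with overlapping groups.

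**Figure D3:**
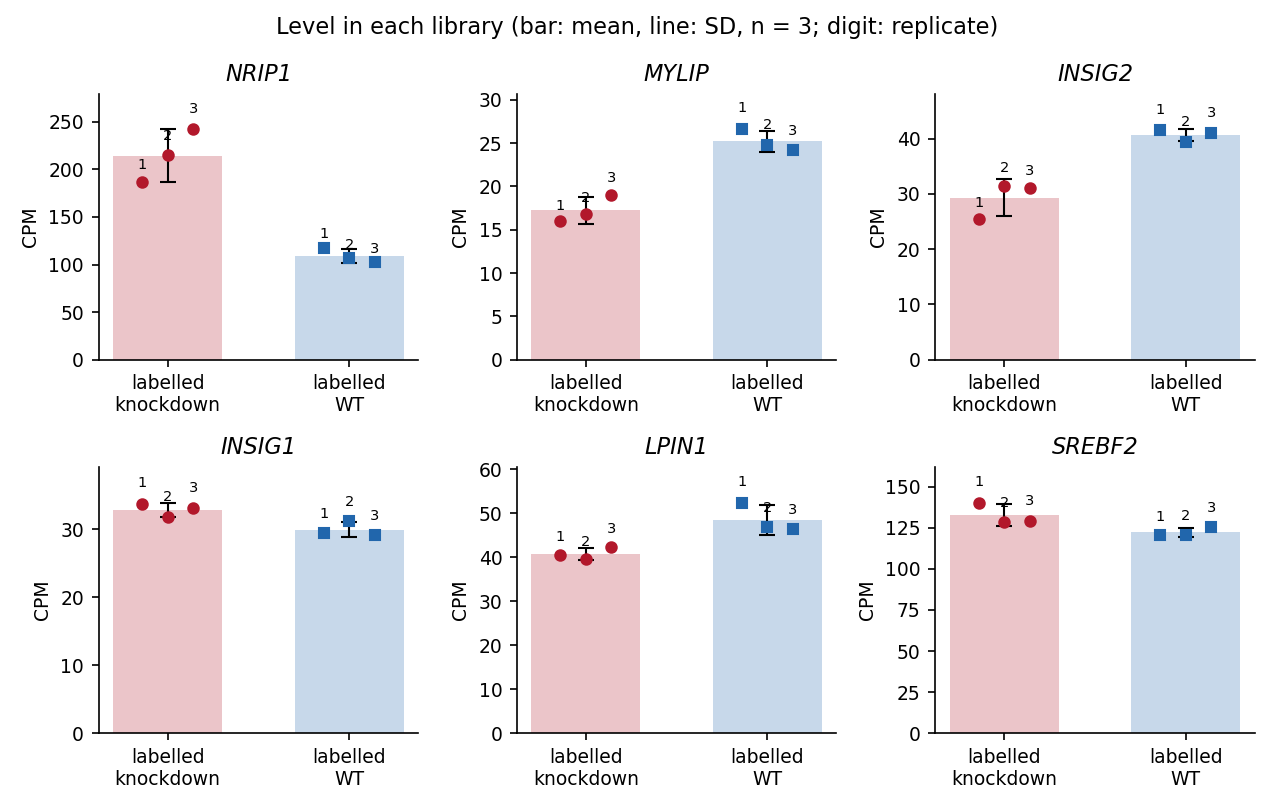
Level in CPM of NRIP1, MYLIP, INSIG2, INSIG1, LPIN1 and SREBF2 in each library, labelled TRIM25 knockdown left of labelled WT; bars are means, lines SD (n = 3) and digits replicate numbers. In none of the 6 genes do the groups overlap, and the separation is narrow for INSIG1 and SREBF2, which did not pass the test.

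Of the storage, transport and lipid genes, LPIN1 passed. LPIN1 encodes a phosphatidate phosphatase and is an SREBP target in cultured cells. It was at 40.6, 39.5 and 42.3 CPM in the libraries labelled knockdown and at 52.4, 46.9 and 46.3 CPM in those labelled WT, and fell by 0.25 on the log2 scale (SE 0.07; edgeR adjusted p = 0.0219). The call was lost without knockdown replicate 2 (adjusted p = 0.107), WT replicate 1 (0.103) or WT replicate 2 (0.0555), with the replicate number as a block (0.0766) and with DESeq2 (0.0504). SOAT1, which esterifies cholesterol for storage and is known to be abundant in glioblastoma, was at 67.8, 80.2 and 85.7 CPM under the knockdown label and at 68.0, 64.3 and 69.8 CPM under WT. Replicate 1 labelled knockdown lay within the WT range, and the other replicates lay above it. The log2 fold change of 0.21 ± 0.08 (SE) did not pass (edgeR adjusted p = 0.0631) but did without knockdown replicate 1 (0.000536) and without the low-count filter. It was 0.12 with the length trend removed (edgeR adjusted p = 0.190) and 0.06 with length and GC trends removed (0.436). Across the fits without 1 library the highest adjusted p was 0.257. STARD4, a soluble sterol carrier gene, had values of 66.1, 68.4 and 85.6 CPM under the knockdown label, against 84.0, 79.6 and 78.6 CPM under WT. Its replicate 3 labelled knockdown was the highest of all libraries, and without it the gene passed as lower (log2 fold change -0.26, edgeR adjusted p = 0.0135). STARD4 also passed as lower with the length trend removed (0.0491) and with length and GC trends removed (0.00122).

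Non-overlap of the groups in CPM was seen for 10 of the 31 genes, 4 with the knockdown label above (SQLE, SREBF2, INSIG1 and NRIP1) and 6 below (MVD, IDI1, MSMO1, MYLIP, INSIG2 and LPIN1). Across all tested genes this held for 37.3%, so the count among the sterol genes was near the background and is no result about them. Fold change across all genes followed transcript length (Spearman's rho 0.30, 14315 genes) and GC content (-0.26, 13808 genes), where genes are not independent replicates. The 18 enzymes had a median length of 2446.5 bp, against 3592 bp for all tested genes, and their median log2 fold change was 0.0069 once both trends were removed, against -0.07 before.

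Neighbouring pathways were read from lists compiled from general knowledge with earlier results of these data in view. Among 18 tested genes of fatty acid synthesis and desaturation, many of them SREBP-1 targets, 6 were higher, 6 were lower and 6 did not pass, with a median log2 fold change of 0.01; 66.7% passed, against 23.3% of all genes. Of the 12 calls, 7 remained without knockdown replicate 2, 5 without WT replicate 2 and 6 without WT replicate 3. Calls among all genes also fell in these fits, from 3330 to 1868, 1826 and 1877, in that order. FASN, the fatty acid synthase gene, was at 406.6, 353.6 and 350.4 CPM in the libraries labelled knockdown, against 284.0, 270.8 and 294.5 CPM in those labelled WT, and rose by 0.39 ± 0.06 on the log2 scale (SE; edgeR adjusted p = 0.000327). ACSL1, an acyl-CoA synthetase gene, rose by 0.31 ± 0.07. The desaturase genes FADS2 and SCD5 went the other way. FADS2 was at 39.6, 35.4 and 38.9 CPM under the knockdown label and at 67.9, 66.4 and 72.2 CPM under WT, 1.81-fold lower (edgeR adjusted p = 3.08e-07), and SCD5 was 1.77-fold lower. These 4 genes kept their calls without any 1 library.

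Among 12 tested LXR targets, efflux genes and receptor partners, 6 were lower, 1 was higher and 5 did not pass, with a median of -0.16; 58.3% passed, against 23.3% of all genes. Of the 7 calls, 3 remained without knockdown replicate 2, 3 without WT replicate 2 and 4 without WT replicate 3. In the same fits the calls among all genes fell from 3330 to 1868, 1826 and 1877. ABCG1, a cholesterol exporter and LXR target like MYLIP, was at 2.08, 1.59 and 2.02 CPM in the libraries labelled knockdown, against 6.48, 6.24 and 7.34 CPM in those labelled WT, and was 3.48-fold lower (edgeR adjusted p = 1.57e-06). The exporter ABCA1 and the LXR partner RXRA, named after their values were seen, had log2 fold changes of -0.36 ± 0.09 and -0.27 ± 0.07 (SE) and kept their calls without any 1 library. ABCA7, an ABC transporter gene, fell by 0.46, a call lost without knockdown replicates 2 or 3 or WT replicates 1 or 2 (adjusted p from 0.0927 to 0.167).

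Among 22 tested genes of lipoprotein uptake and sterol trafficking, 3 were higher, 4 were lower and 15 did not pass, with a median of 0.13; 31.8% passed, against 23.3% of all genes. The number passing was 12 without knockdown replicate 1 and 3 without knockdown replicate 2, WT replicate 2 or WT replicate 3. All genes passing in these fits were 4941, 1868, 1826 and 1877, in that order. VLDLR, a lipoprotein receptor gene, was at 56.3, 53.6 and 50.5 CPM in the libraries labelled knockdown, against 38.6, 35.8 and 33.2 CPM in those labelled WT, 1.49-fold higher (edgeR adjusted p = 4.75e-05). LRP8, also a lipoprotein receptor gene, was 1.19-fold higher, a call lost without knockdown replicates 2 or 3 or WT replicates 2 or 3 (adjusted p from 0.0549 to 0.105). The sterol transporter gene GRAMD1B had only 3, 2 and 3 counts in the libraries labelled knockdown, against 13, 13 and 16 in those labelled WT, and passed as lower (edgeR adjusted p = 0.0019). TSPO fell by 0.26, a call lost without knockdown replicates 2 or 3 or WT replicates 2 or 3 (0.0782 to 0.170).

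Among 16 tested genes of SREBP cleavage and of sterol-regulated protein degradation, 2 were higher and 1 was lower. These were 18.8% of the tested genes, against 23.3% of all genes. Without knockdown replicate 1, 7 of the 16 passed, and 4941 of all 14616 tested genes did. PAQR3, which tethers SCAP and SREBP to the Golgi, was at 24.1, 24.4 and 25.3 CPM in the libraries labelled knockdown, against 17.3, 18.3 and 15.7 CPM in those labelled WT, and rose by 0.53 ± 0.09 on the log2 scale (SE; edgeR adjusted p = 0.000347). ERLIN2 rose by 0.21 and VCP fell by 0.16, both calls lost without knockdown replicates 2 or 3 or any WT replicate (adjusted p from 0.0554 to 0.147). Of 9 further genes that serve sterol synthesis, POR, the electron donor of CYP51A1 and other cytochrome P450 enzymes, was lower, by a log2 fold change of -0.36 ± 0.07. The other genes of that list did not pass, so 11.1% passed, against 23.3% of all genes.

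**Figure D4:**
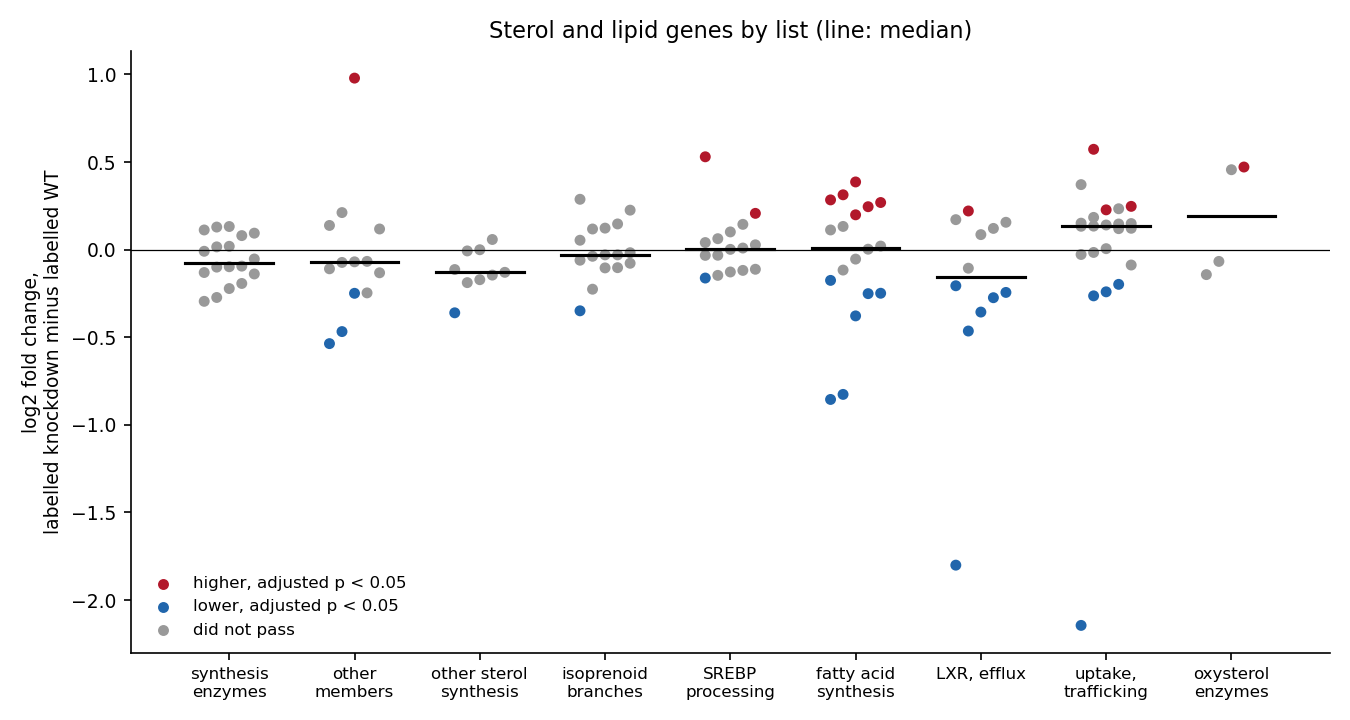
Log2 fold change, labelled TRIM25 knockdown minus labelled WT, of the tested genes in each list (points), with red and blue for genes that passed as higher or lower and a line at the median. The synthesis enzymes lie within 0.3 of 0 and hold no coloured point. Coloured points are 12 of 18 in the fatty acid list and 7 of 12 in the LXR list, against 23.3% of all tested genes. The lists were compiled with earlier results of these data in view and were not tested against each other. With the replicate block, 6 genes of the fatty acid list and 3 of the LXR list passed, and 1891 of all genes did.

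**Figure D5:**
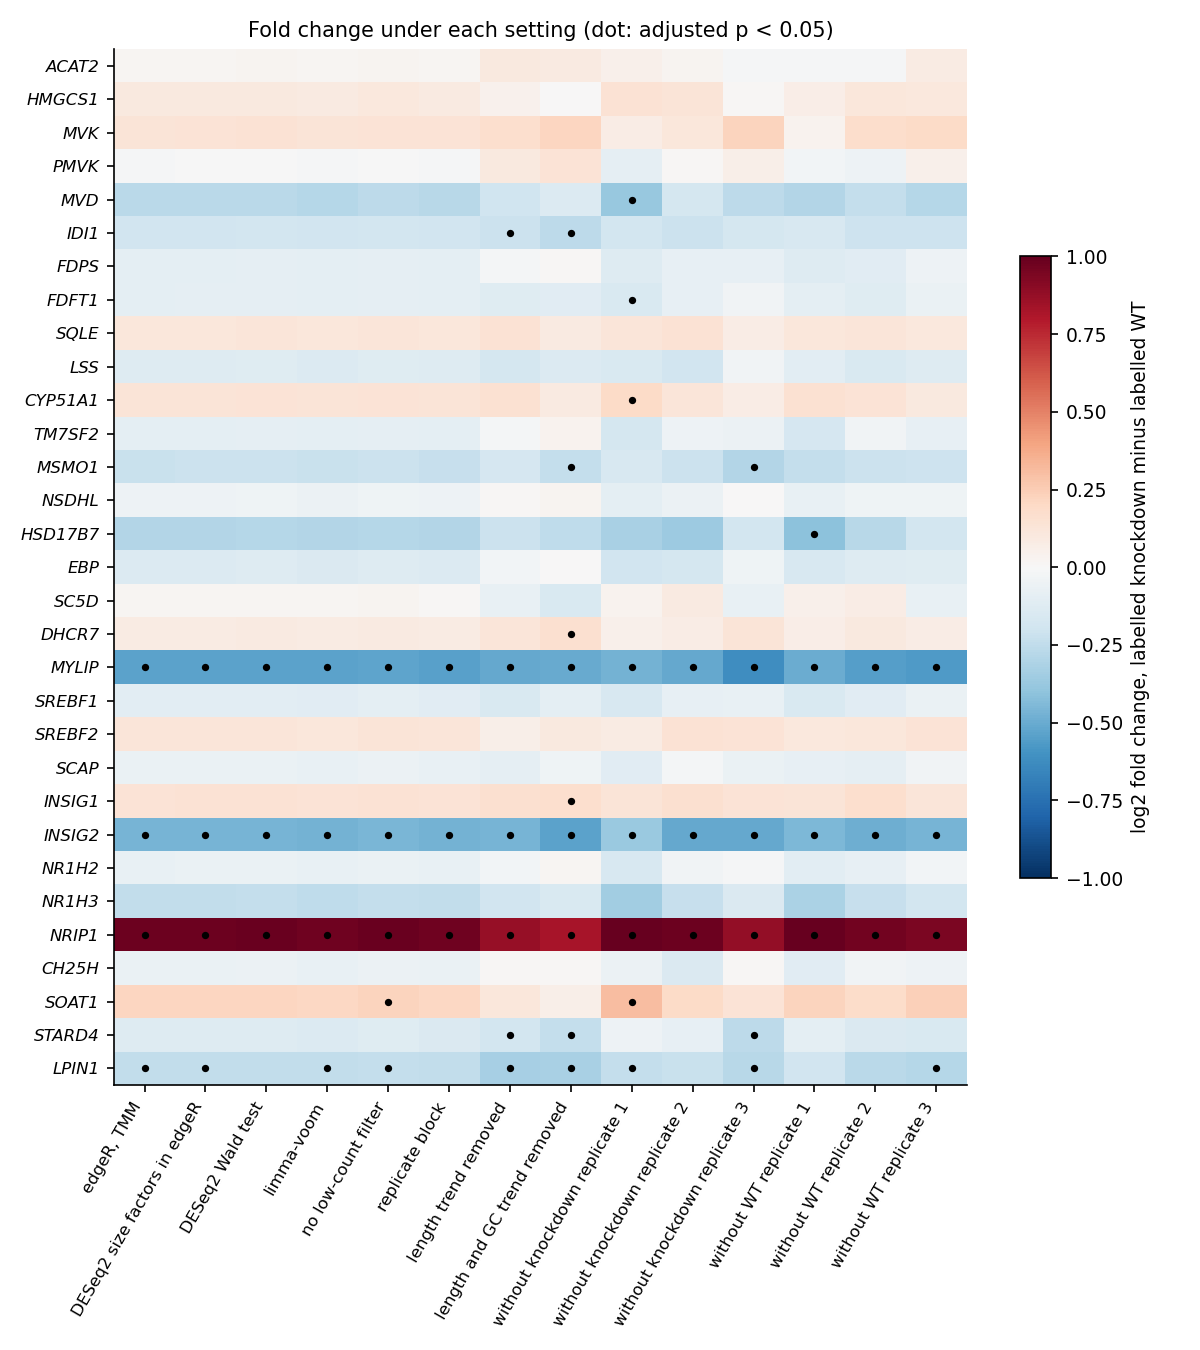
Log2 fold change of each of the 31 genes (rows) under 14 settings (columns), red for higher and blue for lower in the libraries labelled TRIM25 knockdown, with a dot where the adjusted p was under 0.05. NRIP1, MYLIP and INSIG2 carry a dot in every column, LPIN1 in 9 of 14, and other dots are scattered.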

How the data were processed

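Gene-level RNA-seq tables of 6 LN229 libraries were analysed, 3 labelled TRIM25 knockdown and 3 labelled WT by genotype. The submitters' processing notes name FastQC, Trim Galore, HISAT2, MultiQC and the build hg19. Which program counted reads, over which annotation and with which strand setting, is not given in the sources used here. The authors' deposited counts are raw whole reads per gene; their deposited FPKM divides these by 1 length per gene (a whole number of bases, to within 0.001, in 21754 of 21754 genes checked), and their deposited TPM has the same total in each library. The kit marks strand, but without the counting setting, reads of overlapping antisense genes cannot be told apart.

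Counts were fitted in R 4.3.3 with edgeR 4.0.16: filterByExpr (14315 genes), TMM, glmQLFit and glmQLFTest with group as the only term, and Benjamini-Hochberg adjustment over all tested genes, called under 0.05. SE is the size of the log2 fold change over the square root of F, with 95% intervals from the t distribution. Replicates of a group were not duplicates of each other: chi-square over degrees of freedom was 1.95 to 8.54 for each pair. In counts simulated for this comparison (14205 genes), the fit called 83 of 100 genes given a 1.5-fold change, and 93 of 100 given a 2-fold change. Only 200 genes were changed there, while 3330 were called in the data. The adjusted threshold therefore lay at another p-value, and these shares are not the sensitivity of the reported fit. Alternatives were DESeq2 1.42.0, limma-voom (limma 3.58.1), other size factors, no filter, a replicate block, each library left out, and removal of per-library lowess trends on gene length and on GC content (mean over GENCODE v29 transcripts; 96.5% of tested genes matched). Promoters came from RefSeq (GRCh38.p14) and were not joined to the files' coordinates.

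The members and lists were chosen with earlier results of these data known. All 31 members are accounted for; of the other lists, the called genes with the 2 largest and 2 smallest log2 fold changes were taken, apart from some that are not reported here. Among the 32 called genes of these lists, 14 kept their call in all 6 fits without 1 library.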

Additional observations from a re-analysis of the deposited data

How the results depend on the processing

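All genes called were 3330, and 1891 with the replicate block. They were 3674 with the length trend removed and 4512 with length and GC trends removed. Leaving out a library gave 1826 to 4941 (4941 without knockdown replicate 1, 1868 without knockdown replicate 2, 1826 without WT replicate 2, 1877 without WT replicate 3). Members called were 4, but 9 with length and GC trends removed and 3 to 8 without a library. Synthesis enzymes called were 0, but 1 (IDI1) with the length trend removed, 3 (IDI1, MSMO1 and DHCR7) with length and GC trends removed, and 0 to 3 without a library (3 without knockdown replicate 1, 1 each without knockdown replicate 3 and WT replicate 1). Called genes of the other pathway lists were 32, but 15 with the replicate block and 15 to 48 without a library (15 without WT replicate 2, 16 without knockdown replicate 2, 17 without WT replicate 3, 48 without knockdown replicate 1). With the block, the calls were 6 in the fatty acid list, 3 in the LXR list and 2 in the uptake list. The remaining 13 members gave 4 calls in the reported fit (30.8%, against 23.3% of all genes) and between 3 and 6 calls over all settings. The 6 calls came with length and GC trends removed, where all genes called were 4512. The block took the call of LPIN1 and of no other member. Deviations of same-numbered libraries from their group means had correlations of -0.19, 0.0082 and -0.22. With 3 libraries per group, these values cannot settle whether replicate numbers pair the libraries. The sign turned for 9 members, none of them called. With the length trend removed these were PMVK (0.095), NSDHL (0.0099), SC5D (-0.076) and CH25H (0.015), and with length and GC trends removed PMVK (0.14), FDPS (0.0096), TM7SF2 (0.035), NSDHL (0.024), EBP (0.0042), SC5D (-0.15), NR1H2 (0.020) and CH25H (0.012). Without a library the range was -0.015 to 0.085 for ACAT2, -0.088 to 0.055 for PMVK, -0.095 to 0.0077 for NSDHL, -0.077 to 0.089 for SC5D and -0.14 to 0.012 for CH25H. The cause was not tested. Depth limits NR1H3, CH25H and TM7SF2 most, at 46 to 108 counts per library.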

Other observations

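The branches that leave the sterol pathway for protein prenylation, dolichol and ubiquinone showed few differences in the fit of all 6 libraries. There 6.25% of the tested genes passed, against 23.3% of all genes. Of 16 tested genes, 0 passed as higher and 1 as lower in edgeR; the gene was DOLK, the dolichol kinase gene, at 19.1, 16.8 and 18.4 CPM in the libraries labelled knockdown, against 23.5, 22.3 and 23.4 CPM in those labelled WT (log2 fold change -0.35 ± 0.09, SE; edgeR adjusted p = 0.00723). That call was lost without knockdown replicate 2 (adjusted p = 0.0553). Without knockdown replicate 1, 5 of the 16 passed, and 4941 of all 14616 tested genes did. The prenyltransferase subunit genes FNTA and FNTB had log2 fold changes of -0.02 ± 0.07 and 0.29 ± 0.17 (SE), and GGPS1, the geranylgeranyl diphosphate synthase gene, one of -0.08 ± 0.07.

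Of 8 oxysterol enzyme and receptor genes, 4 were abundant enough to test and 1 passed (25%, against 23.3% of all genes). CYP7B1, which hydroxylates oxysterols on their way to bile acids, was at 41.2, 46.8 and 55.7 CPM in the libraries labelled knockdown, against 36.4, 33.7 and 34.0 CPM in those labelled WT. The groups did not overlap, and the log2 fold change was 0.47 ± 0.09 (SE; edgeR adjusted p = 0.00161), kept without any 1 library. The bile acid synthesis gene HSD3B7 had a log2 fold change of -0.07 ± 0.13.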
